A study of Homo sapiens with 40 samples.

Results

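Collagen chains were followed in spheroids of the FaDu and Kyse30 cell lines grown inside type I collagen. The chains are the rows of the count table whose symbol has the form of a collagen alpha chain (COL, a type number, A, a chain number), without COL17A1, a transmembrane collagen of hemidesmosomes. The rule gave 16 of 12655 genes. COL5A1 and COL12A1 among them were singled out because they had been seen to differ by position in the spheroid or with the drugs. COL1A1 was named with them. Those comparisons chose COL5A1 and COL12A1. There the values of these chains and of COL1A1 stand as a description, with no test. The 16 rows reach beyond fibrillar and network-forming chains. The fibrillar chains are COL1A1, COL5A1, COL11A2 and COL27A1. The network-forming chains of basement membranes are COL4A1, COL4A2, COL4A4, COL4A5 and COL4A6. The others are COL18A1 of basement membranes, COL7A1 of anchoring fibrils, COL6A1 of beaded microfilaments, the fibril-associated chains COL9A3, COL12A1 and COL16A1, and COL28A1. The count table has no further row of this form, so other chains, such as the partners of COL1A1 and COL5A1, were not analysed here. Its smallest gene total is 142 counts.

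Collagens are triple helices of 3 alpha chains. Fibrillar chains assemble into the cross-striated fibrils of connective tissue, type IV chains into the sheet under epithelia, and fibril-associated chains sit on the surface of fibrils. Squamous epithelia such as those of the pharynx and oesophagus make type IV, type VII and type XVIII collagen and rest on a stroma whose fibrils come mainly from fibroblasts. A tumour cell that leaves such an epithelium crosses the basement membrane and enters the fibrils.

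Kyse30 is a line of oesophageal squamous cell carcinoma, and FaDu was made from a tumour of the hypopharynx. Both lines carried Dendra2, a protein that light turns from green to red. Each line had 5 groups of 4 libraries, all from spheroids in collagen at 1.7 mg/mL for 72 h. Invasive and non-invasive cells came from spheroids given epidermal growth factor (EGF) at 9 nM. A further group had EGF with 100 nM AZD6244, an inhibitor of the kinase MEK, and another had EGF with 10 µg/mL cetuximab, an antibody to the EGF receptor. The last group stayed in serum-free medium. Collagenase at 0.1 mg/mL for 15 min freed the cells, which were sorted from pooled spheroids. Titles alone divide invasive from non-invasive cells: the titles of both groups speak of photoconversion, and the selection label is the same for both. The MEK inhibitor, cetuximab and serum-free groups were unselected. Any comparison of invasive or non-invasive cells with these groups therefore differs in sorting as well as in treatment, and the 2 cannot be told apart. No label says that the 4 libraries of a group were separate cultures, so p-values measure the spread between libraries, which may be technical.

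Library totals lay between 2312126 and 5669262 counts in FaDu and between 2538447 and 4534339 in Kyse30, apart from invasive Kyse30 library 1 with 463124 counts. That shallow library had 59 counts over the 16 chains, all from COL4A5. The main Kyse30 results are given with and without it, while the summed levels include it. It also had 8.18% of counts from MALAT1, a nuclear RNA, against 3.26%, 2.35% and 1.93% in invasive Kyse30 libraries 2, 3 and 4. Non-invasive Kyse30 libraries 1 and 3 had 6.27% and 9.63%, against 1.68% and 1.91% in libraries 2 and 4, and serum-free ones 1.01% to 1.27%. All 9 genes of a squamous epithelium list were detected in both lines, at summed levels of 3609 to 7219 CPM (counts scaled by library size) in FaDu and 535 to 2343 CPM in Kyse30. In Kyse30, however, the basal keratins KRT5, KRT14 and KRT17 had medians of 0.258, 0 and 0.9 CPM, while EPCAM and CDH1 stood at 254 and 245 CPM. None of the 9 genes of a fibroblast list had a row in the count table, so their levels are not known here. Of the endothelial list, CDH5 was measured, at 0 to 5.47 CPM in FaDu and 0 to 32.8 CPM in Kyse30. Of the 4 leukocyte genes, CD68 was measured, at 0 to 10.4 CPM in FaDu and 0.306 to 54.0 CPM in Kyse30. In these bulk samples, fewer cells of a type and less RNA per cell cannot be told apart.

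The starts of 3 chains are shown because the results turn on them: COL12A1 (chr6:75084326-75206053, reverse strand), COL5A1 (chr9:134641803-134844843, forward strand) and COL4A2 (chr13:110307284-110513209, forward strand), whose window also holds the start of COL4A1. Positions and sequences are from RefSeq on GRCh38.p14, and each window runs from 250 bases before to 50 bases after a start, on the gene's strand. The windows are chr6:75206004-75206303, chr9:134641553-134641852 and chr13:110307034-110307333. Capitals mark a CCAAT box (CCAAT) or a GC box (GGGCGG, or CCGCCC on the other strand).

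COL12A1: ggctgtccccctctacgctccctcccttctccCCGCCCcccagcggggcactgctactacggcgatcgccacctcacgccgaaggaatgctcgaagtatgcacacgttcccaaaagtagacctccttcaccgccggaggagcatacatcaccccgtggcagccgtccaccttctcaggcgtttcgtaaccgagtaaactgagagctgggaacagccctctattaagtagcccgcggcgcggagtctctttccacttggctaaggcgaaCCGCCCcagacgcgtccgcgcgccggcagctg

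COL5A1: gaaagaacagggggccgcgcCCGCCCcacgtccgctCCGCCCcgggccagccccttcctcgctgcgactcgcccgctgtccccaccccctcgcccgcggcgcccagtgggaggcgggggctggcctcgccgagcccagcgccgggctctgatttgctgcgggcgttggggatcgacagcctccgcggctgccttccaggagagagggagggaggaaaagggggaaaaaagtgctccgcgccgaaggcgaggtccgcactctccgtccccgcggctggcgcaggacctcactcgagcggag

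COL4A2: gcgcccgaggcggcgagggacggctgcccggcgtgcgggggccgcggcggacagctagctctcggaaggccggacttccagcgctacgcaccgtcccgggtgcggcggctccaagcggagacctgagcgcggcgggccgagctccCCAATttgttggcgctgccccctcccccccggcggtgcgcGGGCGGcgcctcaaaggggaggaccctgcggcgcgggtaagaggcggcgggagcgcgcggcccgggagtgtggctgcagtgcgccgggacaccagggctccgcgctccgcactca

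COL4A1 and COL4A2 lie head to head, with starts 127 bases apart, so 226 bases of the COL4A2 window are also the COL4A1 window read from the other strand. COL4A5 and COL4A6 form a second head-to-head pair on chromosome X, with starts 380 bases apart. Windows were found for 13 of the 16 chains, 19 windows in all because some genes have several starts. Both strands were searched. GC boxes stood at -218 and 18 from the COL12A1 start and at -230 and -214 from the COL5A1 start. The COL4A2 window had a CCAAT box at -105 and a GC box at -65. A GC box occurs in 44.95% and a CCAAT box in 34.61% of the 35116 windows of the RefSeq table. The AP-1 motif TGANTCA, found in 7.71% of all windows, had no match among the 19 windows, which says only that these letters are not there.

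Levels below are CPM after scaling of library sizes by the trimmed mean of M values (TMM) within each line. Fold changes are on the log2 scale with their standard error, from edgeR's quasi-likelihood test over all 20 libraries of a line. A chain counts as higher or lower when its p, adjusted over all genes tested by the Benjamini-Hochberg method, is under 0.05. In FaDu 15 of the 16 chains passed the filter on low counts, and COL11A2 did not. In Kyse30 10 passed, and COL4A4, COL5A1, COL6A1, COL9A3, COL16A1 and COL27A1 did not. Passing depends on a chain being high in at least some group, so the chains that passed are not all chains. For a chain that is low in the other groups, the direction of its differences is in part set by this filter. Comparisons with the non-invasive group share its libraries, and comparisons with serum-free cells share theirs.

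The FaDu chains differed in both directions between sorted EGF-treated cells and unselected serum-free cells. In non-invasive cells 5 of 15 chains were higher than in serum-free cells (COL4A2, COL4A6, COL9A3, COL12A1 and COL18A1) and 6 were lower (COL1A1, COL4A4, COL6A1, COL7A1, COL16A1 and COL27A1). Of all genes tested, 50% were called there, 25.3% higher and 24.7% lower. The median log2 fold change was -0.36 over the chains and -0.02 over all genes. In invasive cells 4 chains were higher than in serum-free cells (COL4A1, COL4A2, COL4A6 and COL12A1) and 8 were lower (COL1A1, COL4A4, COL5A1, COL6A1, COL7A1, COL16A1, COL27A1 and COL28A1), where 57.3% of all genes were called, 27.8% higher and 29.5% lower. The chain median was -0.43 there, against -0.04 over all genes. COL5A1 and COL12A1 were chosen on the invasive, non-invasive and drug libraries that enter every comparison with serum-free cells, and COL1A1 was named with them. The calls of these chains there, in either line, are no independent support, and their values are given below without a p. Both chain medians above include these chains. The mitochondrial share of counts was 10.4% to 12.0% in invasive, 7.50% to 11.5% in non-invasive and 14.3% to 15.8% in serum-free FaDu libraries, and its part in these results was not tested. Between invasive and non-invasive cells, 1 of 12 tested chains, COL6A1, was lower and none of the 12 was higher. In that comparison 3.03% of genes were called, 0.668% higher and 2.36% lower. Outside the 12, the invasive over the non-invasive mean was 0.11 for COL5A1, 0.68 for COL1A1 and 1.34 for COL12A1. DESeq2 called 3 chains there, and 4 had an unadjusted p under 0.05.

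With the MEK inhibitor, 5 of 12 tested FaDu chains were higher than in non-invasive cells (COL4A4, COL6A1, COL7A1, COL16A1 and COL27A1) and none of the 12 was lower. Of all genes tested, 29.7% were called there, 14.8% higher and 14.9% lower. COL12A1, COL5A1 and COL1A1 are outside the 12, at 0.30, 0.65 and 2.03 times the non-invasive mean. COL4A4 and COL16A1 passed the filter through the MEK inhibitor and serum-free groups, so their rises are in part set by it. DESeq2 also called 5, and 6 chains had an unadjusted p under 0.05. With cetuximab, COL4A4 and COL7A1 were higher and none of the 12 was lower, where 8.56% of genes were called, 3.64% higher and 4.93% lower. Outside the 12, COL12A1, COL5A1 and COL1A1 were at 0.46, 1.12 and 1.28 times the non-invasive mean. DESeq2 called 2 there, and 4 had an unadjusted p under 0.05. Chain medians were taken over all 15 chains that passed the filter. COL5A1 and COL12A1, chosen on these comparisons, and COL1A1, named with them, are thus in the medians. These medians were 0.31 with the MEK inhibitor and 0.15 with cetuximab, against 0.03 and 0.05 over all genes, and are a description only. Set against serum-free cells, the MEK inhibitor group had 3 chains higher (COL4A1, COL4A2 and COL18A1) and 2 lower (COL6A1 and COL27A1), where 19.4% of genes were called, 10.8% higher and 8.65% lower. The cetuximab group had 5 chains higher (COL4A1, COL4A2, COL4A6, COL9A3 and COL18A1) and 8 lower (COL1A1, COL4A4, COL4A5, COL6A1, COL7A1, COL16A1, COL27A1 and COL28A1), where 43.8% were called, 22.7% higher and 21.1% lower. Between the drugs, 5 chains were higher with the MEK inhibitor than with cetuximab (COL4A4, COL4A5, COL7A1, COL16A1 and COL27A1), where 19.7% of genes were called, 8.54% higher and 11.2% lower. None of the 12 tested was lower there. Outside the 12, the MEK inhibitor mean over the cetuximab mean was 0.65 for COL12A1, 0.58 for COL5A1 and 1.58 for COL1A1. DESeq2 called 5, and 5 had an unadjusted p under 0.05. That last count depends on single libraries: it was 2 without cetuximab library 1, and 3 without cetuximab library 3 or MEK inhibitor library 1. The count against serum-free cells was 3 without MEK inhibitor library 3 or serum-free library 4.

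Kyse30 had fewer calls. In non-invasive cells COL4A5 was higher and COL12A1 lower than in serum-free cells, 2 of 10 chains, where 12.9% of all genes were called, 8.1% higher and 4.76% lower. COL12A1, here and in the invasive count below, was chosen on these libraries and passed the filter through the serum-free and drug groups. Its calls are thus no independent support, and COL4A5 was the only other chain called in non-invasive cells. Without the shallow library COL4A6 joined the higher chains, where 27.8% of genes were called. In invasive cells COL4A5 and COL4A6 were higher and COL12A1 and COL28A1 lower than in serum-free cells, where 26.6% of genes were called, 12% higher and 14.6% lower, and the same 4 chains were called without the shallow library, where 38.5% of genes were called. Mitochondrial genes took 11.7% to 26.6% of counts in invasive, 8.22% to 19.3% in non-invasive and 19.7% to 23.8% in serum-free Kyse30 libraries, the highest invasive share being that of the shallow library. The part of this share in the results was not tested. The count of 4 was 2 without invasive library 4, serum-free library 2 or serum-free library 3, and 1 without serum-free library 4. The count of 2 in non-invasive cells was 1 without non-invasive library 3 or serum-free library 4. Of the 8 chains tested, COL1A1 and COL12A1 left out, edgeR called none between invasive and non-invasive cells. There 0.409% of genes were called, 0.0668% higher and 0.342% lower. None was called with cetuximab against non-invasive cells, where 4.92% of genes were called, 1.85% higher and 3.07% lower. None was called with the MEK inhibitor against them either, where 4.56% were called, 1.65% higher and 2.91% lower. DESeq2 called 0 in these 3 comparisons, and 1, 2 and 4 chains of 8 had an unadjusted p under 0.05. Outside the 8, COL12A1 differed from non-invasive cells by 4.61 with cetuximab and 5.47 with the MEK inhibitor on the log2 scale. The COL1A1 means were 0.61 and 1.05 times the non-invasive mean. Without the shallow library edgeR called none of 8 between invasive and non-invasive cells, where 2.1% of genes were called and no chain had an unadjusted p under 0.05, and none with cetuximab, where 17.1% were called and 2 chains had one. Without the shallow library 1 chain, COL18A1, was higher with the MEK inhibitor than in non-invasive cells (log2 fold change 1.01 ± 0.34, edgeR adjusted p = 0.046), where 14.4% of genes were called. Against serum-free cells edgeR called 0 of 10 chains with cetuximab or the MEK inhibitor, where 3.13% of genes were called with cetuximab, 1.88% higher and 1.25% lower, and 3.9% with the MEK inhibitor, 2.29% higher and 1.61% lower. At an unadjusted p under 0.05 there were 2 and 1, and DESeq2 called 1 and 0. Between the drugs edgeR and DESeq2 called 0 of 8, none had an unadjusted p under 0.05, and 1.18% of genes were called, 0.593% higher and 0.585% lower. With cetuximab against serum-free cells 1 chain was also called by edgeR without the shallow library (COL4A2), where 15.2% of genes were called, and without serum-free library 1.

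**Figure D1:**
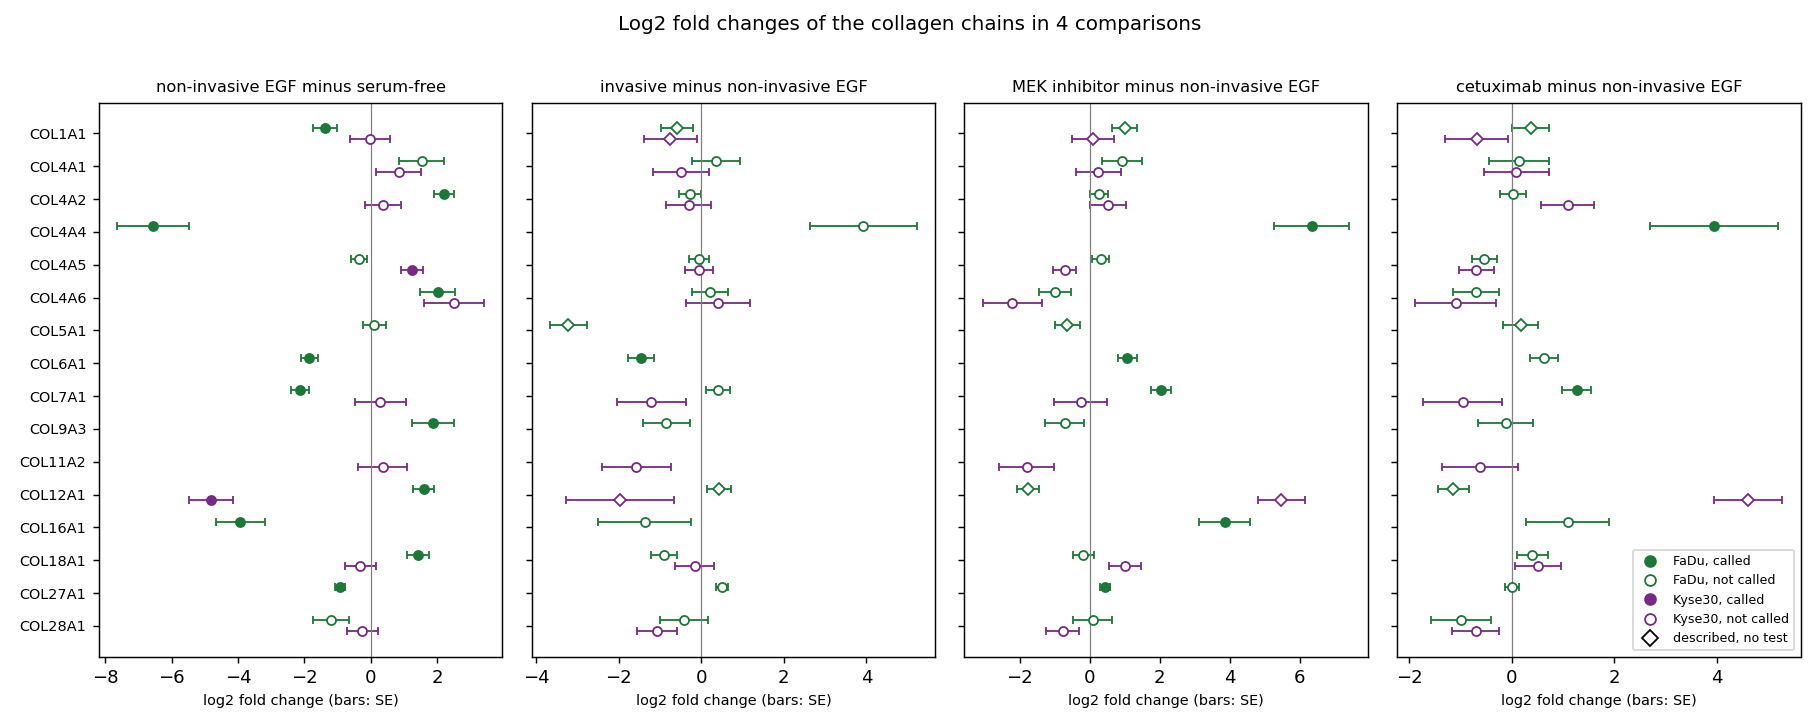
Log2 fold changes of the 16 chains (x axis, each panel with its own range; bars are standard errors) in 4 comparisons, FaDu in green and Kyse30 in purple. Filled circles passed an edgeR adjusted p of 0.05, open circles did not, and diamonds are described without a test; COL12A1 lies at 1.60 in FaDu and -4.81 in Kyse30 for non-invasive against serum-free cells, values that share libraries with those that chose it, and chains that did not pass the filter have no point.

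COL12A1, a fibril-associated chain that binds the surface of type I fibrils, lay on opposite sides of the serum-free level in invasive and non-invasive cells of the 2 lines. In FaDu it had 29.0, 32.6, 29.0 and 30.8 CPM in the 4 invasive libraries and 21.7, 23.8, 18.3 and 26.6 CPM in the non-invasive ones. MEK inhibitor libraries had 7.75, 8.53, 4.96 and 5.53 CPM, cetuximab libraries 7.37, 16.1, 3.81 and 14.1 CPM and serum-free libraries 10.6, 5.39, 7.94 and 6.30 CPM. By mean the order ran from invasive (30.4 ± 1.75 CPM; SD, n = 4) over non-invasive, cetuximab and serum-free to MEK inhibitor-treated cells (6.69 ± 1.72 CPM). Invasive did not overlap non-invasive and non-invasive did not overlap cetuximab, while the 3 lower groups overlapped each other. The log2 difference from serum-free cells was 2.03 ± 0.32 in invasive and 1.60 ± 0.32 in non-invasive cells, 0.46 ± 0.33 with cetuximab and -0.16 ± 0.34 with the MEK inhibitor. The differences that chose the chain were 0.43 ± 0.29 for invasive against non-invasive cells, -1.76 ± 0.32 for the MEK inhibitor and -1.14 ± 0.30 for cetuximab against non-invasive cells. The libraries of those comparisons also set the differences from serum-free cells.

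In Kyse30 the order was turned round. Invasive libraries had 0, 0.311, 0 and 0 CPM, which is 1 count over the group, and non-invasive libraries 0.943, 0.217, 0 and 0.901 CPM, which is 8 counts. With the MEK inhibitor there were 35.1, 22.0, 34.0 and 10.5 CPM, with cetuximab 19.4, 14.7, 17.7 and 4.00 CPM and in serum-free cells 19.8, 20.5, 16.1 and 7.62 CPM. Every library of the last 3 groups lay above every invasive and non-invasive library, and the 3 groups overlapped each other. The chain passed the Kyse30 filter through those 3 groups. The log2 difference of non-invasive from serum-free cells was -4.81 ± 0.67, and -4.82 ± 0.63 without the shallow library. The 1 count of the invasive group against 177 in serum-free cells made the level 149.7-fold lower (exact 95% counting interval 26.5 to 5947). The floor of 3 counts over the invasive group is 0.33 CPM, so the group stood at or under what 0 counts allow. Intervals and floors cover counting error only. Against serum-free cells the MEK inhibitor and cetuximab groups differed by 0.66 ± 0.49 and -0.20 ± 0.49. The log2 differences that chose the chain were 5.47 ± 0.67 for the MEK inhibitor and 4.61 ± 0.67 for cetuximab, each against the 8 counts of non-invasive cells. The Kyse30 difference of non-invasive from serum-free cells minus that of FaDu was -6.41 ± 0.73, set in part by the non-invasive values that chose the chain.

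**Figure D2:**
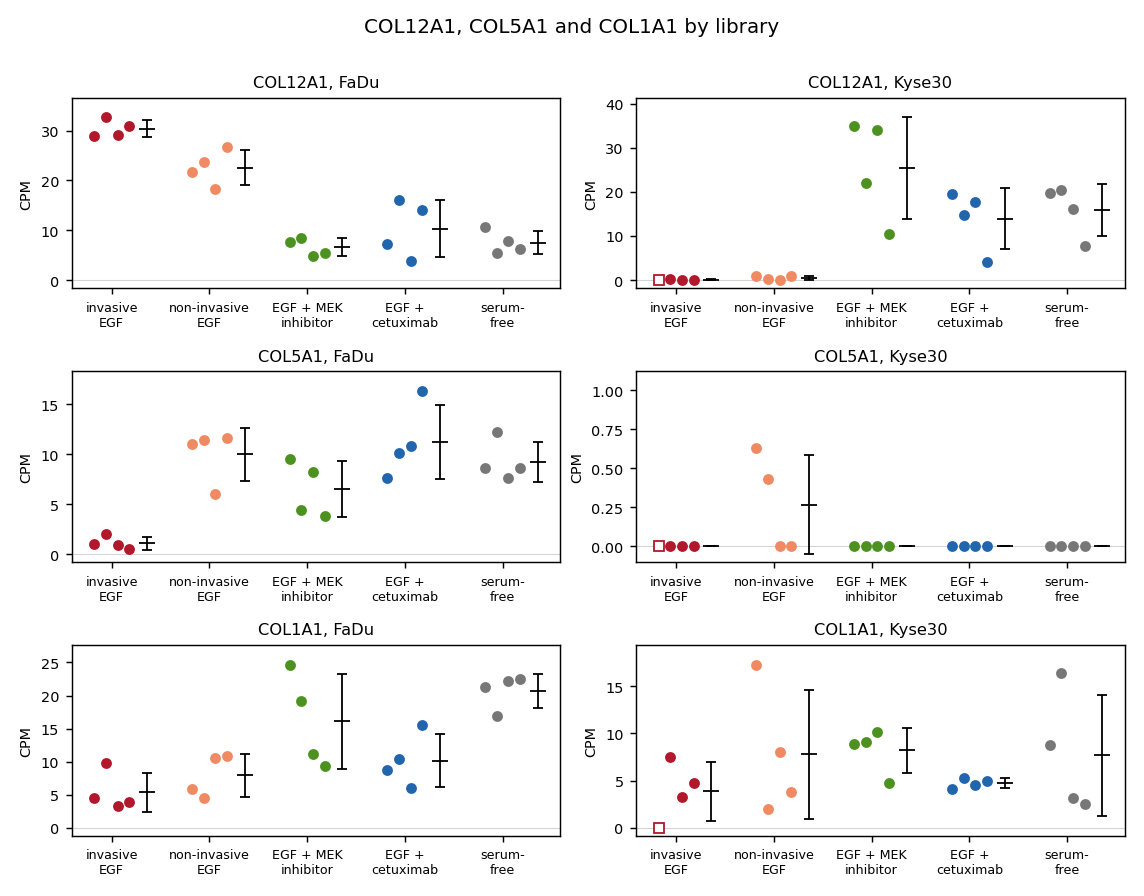
CPM (y axis) of COL12A1, COL5A1 and COL1A1 in each of the 4 libraries of the 5 groups (x axis), FaDu left and Kyse30 right, with mean and SD at the right of each group; the open square is the shallow invasive Kyse30 library. FaDu COL12A1 is highest in invasive cells, between 29.0 and 32.6 CPM, while Kyse30 COL12A1 is at most 0.943 CPM in invasive and non-invasive cells.

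COL5A1, a chain of type V collagen, which starts and sizes type I fibrils, was low in invasive FaDu cells. Invasive libraries had 0.957, 2.02, 0.916 and 0.478 CPM, non-invasive libraries 11.0, 11.4, 6.02 and 11.6 CPM and MEK inhibitor libraries 9.51, 4.38, 8.26 and 3.83 CPM. Cetuximab libraries had 7.60, 10.1, 10.8 and 16.3 CPM and serum-free libraries 8.58, 12.2, 7.66 and 8.57 CPM. All 4 invasive libraries lay below every other FaDu library, and the remaining 4 groups overlapped their neighbours in the order of means. The difference between invasive and non-invasive cells, which chose the chain, was -3.22 ± 0.44. The log2 difference from serum-free cells was -3.12 ± 0.45 in the same invasive libraries. It was 0.10 ± 0.35 in non-invasive, 0.28 ± 0.34 in cetuximab-treated and -0.54 ± 0.36 in MEK inhibitor-treated cells. In Kyse30 the chain had 4 counts in all, 0.629, 0.433, 0 and 0 CPM in the non-invasive libraries, and 0 in the other 16. The 0 counts of the Kyse30 serum-free group allow up to 0.279 CPM.

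COL1A1, the main chain of type I collagen and so of the gel around the spheroids, was lower in invasive and non-invasive FaDu cells than in serum-free ones. Invasive libraries had 4.55, 9.76, 3.36 and 3.82 CPM, non-invasive libraries 5.82, 4.42, 10.5 and 10.9 CPM and MEK inhibitor libraries 24.7, 19.1, 11.2 and 9.36 CPM. Cetuximab libraries had 8.71, 10.4, 6.02 and 15.5 CPM and serum-free libraries 21.2, 16.9, 22.1 and 22.4 CPM. Neighbouring groups overlapped all along the order of means, but neither invasive, non-invasive nor cetuximab libraries reached the serum-free range. The log2 difference from serum-free cells was -1.96 ± 0.38 in invasive, -1.38 ± 0.36 in non-invasive and -1.02 ± 0.35 in cetuximab-treated cells. The cetuximab call counted above, no independent support, was lost without cetuximab library 1 or 3, where the difference was -0.95 and -0.82. MEK inhibitor-treated cells differed from serum-free cells by -0.38 ± 0.34 and from non-invasive cells by 1.00 ± 0.36. Kyse30 libraries had 0, 7.46, 3.25 and 4.74 CPM in invasive, 17.3, 1.95, 8.08 and 3.83 CPM in non-invasive and 8.83, 9.10, 10.1 and 4.73 CPM in MEK inhibitor-treated cells. Cetuximab-treated Kyse30 cells had 4.14, 5.28, 4.53 and 5.01 CPM and serum-free ones 8.79, 16.4, 3.14 and 2.54 CPM. These 5 groups overlapped.

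COL27A1, a fibrillar chain best known from cartilage, was the other fibrillar row with calls. It lay between 92.3 and 145 CPM in invasive, 69.6 and 83.9 CPM in non-invasive, 88.8 and 124 CPM in MEK inhibitor-treated, 68.4 and 84.9 CPM in cetuximab-treated and 127 and 153 CPM in serum-free FaDu cells. Non-invasive and cetuximab-treated cells overlapped each other and lay below the other groups, and serum-free cells lay above all but invasive cells. It fell against serum-free cells in non-invasive (-0.93 ± 0.14, edgeR adjusted p = 6.6e-06) and cetuximab-treated cells (-0.93 ± 0.14, edgeR adjusted p = 9.2e-06). It also fell in invasive (-0.43 ± 0.14, edgeR adjusted p = 0.012) and MEK inhibitor-treated cells (-0.49 ± 0.14, edgeR adjusted p = 0.017). The invasive call was lost without invasive library 4 (edgeR adjusted p 0.051), and the MEK inhibitor call without MEK inhibitor library 2 or 3 or serum-free library 4 (0.057, 0.084 and 0.053). Against non-invasive cells it was higher with the MEK inhibitor (0.44 ± 0.14, edgeR adjusted p = 0.022), a call lost without MEK inhibitor library 1 (edgeR adjusted p 0.084) and without non-invasive library 1 or 2 (0.053 and 0.07). It was higher with the MEK inhibitor than with cetuximab as well (0.44 ± 0.14, edgeR adjusted p = 0.031), a call lost without cetuximab library 1 or 3 or MEK inhibitor library 1 or 4 (0.073, 0.07, 0.095 and 0.054). The difference of invasive from non-invasive cells was 0.50 ± 0.14, edgeR adjusted p = 0.056, with no overlap of the 2 groups. In Kyse30 COL27A1 lay between 0 and 3.21 CPM. COL11A2, a fibrillar chain of cartilage, lay between 0 and 7.75 CPM in FaDu and between 0 and 8.80 CPM in Kyse30, and was not called in any Kyse30 comparison.

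Of the 5 chains higher in non-invasive than in serum-free FaDu cells, COL4A2, COL4A6 and COL18A1 belong to basement membranes. The other basement membrane chains did not rise with them: COL4A4 was lower, and COL4A1 and COL4A5 were not called. COL4A2, which pairs with COL4A1 in the type IV network of nearly all basement membranes, had 14.1, 14.5, 11.0 and 16.02 CPM in invasive, 15.5, 19.1, 14.5 and 18.1 CPM in non-invasive and 19.7, 23.5, 23.1 and 14.2 CPM in MEK inhibitor-treated FaDu cells. Cetuximab libraries had 21.7, 19.8, 14.3 and 12.7 CPM and serum-free libraries 1.63, 2.58, 5.67 and 4.28 CPM. Every library with EGF lay above every serum-free library, with or without a drug. COL4A2 rose against serum-free cells in invasive (1.93 ± 0.30, edgeR adjusted p = 5.5e-06), non-invasive (2.20 ± 0.30, edgeR adjusted p = 9.4e-07), MEK inhibitor-treated (2.47 ± 0.30, edgeR adjusted p = 7.3e-07) and cetuximab-treated cells (2.22 ± 0.30, edgeR adjusted p = 1.1e-06). It differed from non-invasive cells by 0.26 ± 0.26 with the MEK inhibitor (edgeR adjusted p = 0.46) and by 0.02 ± 0.26 with cetuximab (edgeR adjusted p = 0.98). COL4A1, read from the same start region in the other direction, had fewer calls. It had 7.66, 0.337, 3.36 and 7.17 CPM in invasive, 5.60, 6.29, 1.78 and 1.21 CPM in non-invasive, 2.82, 6.69, 7.85 and 10.6 CPM in MEK inhibitor-treated, 4.47, 3.15, 4.82 and 3.95 CPM in cetuximab-treated and 1.23, 1.88, 1.70 and 0.252 CPM in serum-free FaDu cells. It rose against serum-free cells with the MEK inhibitor (2.46 ± 0.66, edgeR adjusted p = 0.0088), with cetuximab (1.68 ± 0.67, edgeR adjusted p = 0.045) and in invasive cells (1.88 ± 0.67, edgeR adjusted p = 0.019), and was 1.54 ± 0.68 in non-invasive cells (edgeR adjusted p = 0.062). The invasive call was lost without invasive library 1 or 4 or serum-free library 4 (edgeR adjusted p 0.073, 0.065 and 0.069). The cetuximab call was lost without cetuximab library 1, 3 or 4 or serum-free library 1, 3 or 4, where the highest adjusted p was 0.14. Serum-free FaDu libraries had at most 1.88 CPM of COL4A1, so the directions and p-values of its rises are in part set by the filter.

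In Kyse30 the same pair showed no call with all libraries. COL4A2 had 0, 15.2, 7.32 and 3.39 CPM in invasive, 6.92, 11.5, 8.85 and 9.91 CPM in non-invasive and 16.8, 14.2, 8.04 and 14.2 CPM in MEK inhibitor-treated cells. Cetuximab libraries had 19.9, 26.9, 13.2 and 19.5 CPM and serum-free libraries 5.86, 1.92, 7.07 and 14.4 CPM, with serum-free library 4 inside the range of the cetuximab group. The change in non-invasive against serum-free cells was 0.37 ± 0.53 (edgeR adjusted p = 0.73), which differed from FaDu by -1.82 ± 0.62 (edgeR adjusted p = 0.038). That difference was called in 13 of 23 alternatives and reached an edgeR adjusted p of 0.18 without serum-free Kyse30 library 4. It was also lost without any 1 of FaDu non-invasive libraries 2 and 4, FaDu serum-free libraries 1 and 2, Kyse30 non-invasive libraries 1 and 3 and Kyse30 serum-free library 3. With cetuximab COL4A2 differed from serum-free cells by 1.46 ± 0.53 (edgeR adjusted p = 0.14), and by 1.47 ± 0.44 without the shallow library (edgeR adjusted p = 0.023). COL4A1 in Kyse30 lay between 0 and 9.64 CPM, its group means between 2.61 and 5.81 CPM, and the groups overlapped.

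COL4A5 and COL4A6, the pair that forms a type IV trimer of epithelial and smooth muscle basement membranes, rose in invasive against serum-free Kyse30 cells. COL4A5 had 127, 79.5, 65.9 and 67.0 CPM in invasive and 55.0, 76.2, 132 and 78.9 CPM in non-invasive Kyse30 cells. MEK inhibitor libraries had 62.2, 57.0, 32.4 and 56.0 CPM, cetuximab libraries 41.4, 43.0, 45.3 and 81.3 CPM and serum-free libraries 32.6, 50.7, 42.4 and 18.2 CPM. Invasive and non-invasive libraries did not overlap the serum-free ones, and the drug groups overlapped the serum-free and non-invasive ones. Cetuximab library 4, at 81.3 CPM, stood above the rest of its group, and the MEK inhibitor group lay wholly below invasive cells. It rose in non-invasive (1.24 ± 0.35, edgeR adjusted p = 0.018) and invasive cells (1.20 ± 0.35, edgeR adjusted p = 0.013). Without the shallow library, which had the highest invasive value, the changes were 1.24 ± 0.29 (edgeR adjusted p = 0.0028) and 0.97 ± 0.31 (edgeR adjusted p = 0.017). The non-invasive call was lost without non-invasive library 3 (edgeR adjusted p 0.092), the library with 9.63% MALAT1 and the highest COL4A5 value of its group, and without serum-free library 1 or 4 (0.05 and 0.067). The invasive call was lost without serum-free library 4 (0.052). Against non-invasive cells the drug groups differed by -0.72 ± 0.34 (MEK inhibitor, edgeR adjusted p = 0.28) and -0.70 ± 0.34 (cetuximab, edgeR adjusted p = 0.27). In FaDu COL4A5 lay between 8.82 and 26.5 CPM and was not called in EGF-treated cells of either position against serum-free cells (invasive -0.41 ± 0.24, edgeR adjusted p = 0.15; non-invasive -0.36 ± 0.24, edgeR adjusted p = 0.22). With cetuximab it fell against serum-free cells in FaDu (-0.89 ± 0.24, edgeR adjusted p = 0.0041), at 11.2 ± 1.63 CPM with cetuximab and 21.0 ± 3.93 CPM in serum-free cells (SD, n = 4 each). The MEK inhibitor group was higher than the cetuximab group (0.85 ± 0.24, edgeR adjusted p = 0.013). The Kyse30 change in non-invasive against serum-free cells exceeded that of FaDu by 1.60 ± 0.41 (edgeR adjusted p = 0.0053), and all 23 alternatives kept this call.

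COL4A6 was the 1 chain that rose in invasive against serum-free cells of both lines. Serum-free cells of both lines were low in it, so it passed the filter mainly through EGF-treated groups. The direction of its rises against serum-free cells, and their p-values, are in part set by that filter. In FaDu it had 4.31, 3.03, 5.80 and 4.30 CPM in invasive, 2.24, 4.66, 3.34 and 4.84 CPM in non-invasive and 1.41, 1.15, 2.27 and 2.55 CPM in MEK inhibitor-treated cells. Cetuximab libraries had 1.56, 3.78, 2.21 and 1.89 CPM and serum-free libraries 0.817, 0.938, 0.567 and 1.26 CPM. It rose in invasive (2.23 ± 0.52, edgeR adjusted p = 0.00069) and non-invasive cells (2.01 ± 0.52, edgeR adjusted p = 0.0022) against serum-free cells. The cetuximab call (1.31 ± 0.54, edgeR adjusted p = 0.049) was lost in 13 of 15 alternatives, among them each omission of a cetuximab or serum-free library other than cetuximab library 1. In Kyse30 it had 0, 5.90, 4.88 and 9.82 CPM in invasive, 2.52, 3.03, 6.16 and 5.86 CPM in non-invasive and 1.55, 0.535, 1.04 and 0.498 CPM in MEK inhibitor-treated cells. Cetuximab-treated Kyse30 cells had 0.777, 1.38, 2.88 and 3.00 CPM and serum-free ones 2.93, 0, 0 and 0 CPM, all 8 serum-free counts in library 1. Without that library the fitted difference of invasive cells, 7.32, rests on a group of 0 counts and is no bound. It rose in invasive cells (2.91 ± 0.92, edgeR adjusted p = 0.021), and by 3.16 ± 0.90, edgeR adjusted p = 0.0063 without the shallow library, while the change in non-invasive cells was 2.50 ± 0.91, edgeR adjusted p = 0.073, and 2.50 ± 0.87, edgeR adjusted p = 0.031 without the shallow library. The invasive call was lost without invasive library 4 (edgeR adjusted p 0.072) and without serum-free library 2, 3 or 4 (0.056, 0.057 and 0.054). With the MEK inhibitor no Kyse30 library reached the non-invasive range (-2.21 ± 0.84, edgeR adjusted p = 0.16).

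COL18A1, whose collagen XVIII carries heparan sulfate in basement membranes and releases endostatin, was higher in non-invasive than in serum-free FaDu cells. It had 8.85, 4.37, 6.11 and 17.2 CPM in invasive, 20.2, 12.6, 16.9 and 20.6 CPM in non-invasive and 22.2, 10.8, 16.3 and 13.2 CPM in MEK inhibitor-treated FaDu cells. Cetuximab libraries had 18.8, 34.6, 19.7 and 20.3 CPM and serum-free libraries 5.31, 6.33, 7.37 and 6.80 CPM. The non-invasive, MEK inhibitor and cetuximab groups lay wholly above serum-free cells, and the invasive group overlapped all but the cetuximab group. It rose in non-invasive (1.43 ± 0.33, edgeR adjusted p = 0.00084), MEK inhibitor-treated (1.25 ± 0.34, edgeR adjusted p = 0.0092) and cetuximab-treated cells (1.83 ± 0.33, edgeR adjusted p = 6.8e-05). Invasive cells differed from serum-free cells by 0.52 ± 0.35 (edgeR adjusted p = 0.21) and from non-invasive cells by -0.91 ± 0.32 (edgeR adjusted p = 0.13). In Kyse30 the values were 0, 10.3, 15.0 and 12.2 CPM in invasive, 7.55, 16.02, 13.1 and 10.8 CPM in non-invasive and 17.9, 22.8, 23.4 and 32.1 CPM in MEK inhibitor-treated cells. Cetuximab-treated Kyse30 cells had 30.8, 14.01, 8.65 and 14.8 CPM and serum-free ones 15.4, 10.9, 10.6 and 22.4 CPM. Its MEK inhibitor libraries lay above all non-invasive ones (1.01 ± 0.45, edgeR adjusted p = 0.25; 1.01 ± 0.34, edgeR adjusted p = 0.046 without the shallow library). The change of non-invasive against serum-free Kyse30 cells was -0.31 ± 0.46 (edgeR adjusted p = 0.73), and it differed from that of FaDu by -1.73 ± 0.58 (edgeR adjusted p = 0.034). That difference lost its call in 9 of 23 alternatives: without FaDu non-invasive library 1 or 4, FaDu serum-free library 1, 2 or 4, Kyse30 non-invasive library 1 or 4 or Kyse30 serum-free library 4, and in 1 other setting. Its edgeR adjusted p was between 0.0084 and 0.09 over the alternatives.

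**Figure D3:**
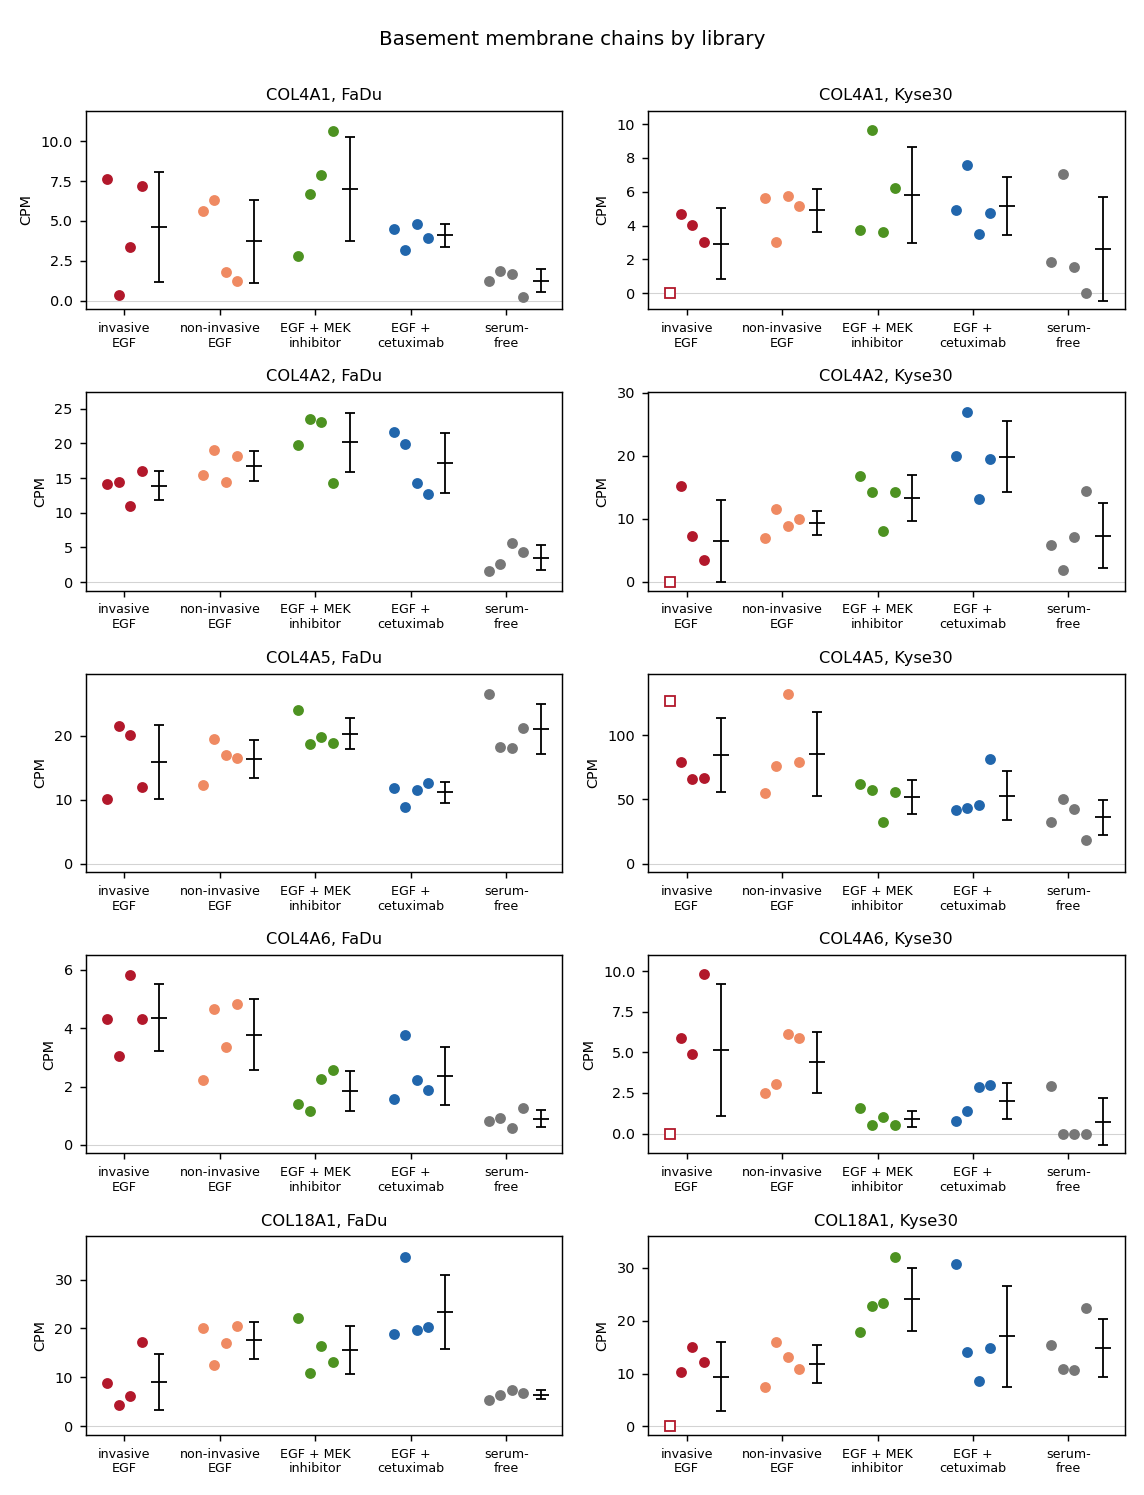
CPM (y axis) of COL4A1, COL4A2, COL4A5, COL4A6 and COL18A1 in each library of the 5 groups (x axis), FaDu left and Kyse30 right, with mean and SD beside each group; the open square is the shallow invasive Kyse30 library. All FaDu COL4A2 values with EGF, at least 11.0 CPM, lie above the serum-free values, at most 5.67 CPM; Kyse30 COL4A5 is at most 50.7 CPM in serum-free cells.

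COL4A4, which in kidney joins COL4A5 in the type IV network of the glomerulus, went the other way from COL4A2 in FaDu. It had 0, 1.01, 4.58 and 0 CPM in invasive and 0.224, 0, 0 and 0 CPM in non-invasive FaDu cells, which is 18 counts and 1 count. With the MEK inhibitor there were 7.75, 9.45, 3.51 and 7.87 CPM, with cetuximab 0.223, 0.63, 1.41 and 2.75 CPM and in serum-free cells 9.39, 8.91, 7.94 and 7.06 CPM. The chain passed the FaDu filter through the MEK inhibitor and serum-free groups. Its falls against serum-free cells and rises with the MEK inhibitor, and their p-values, are thus in part set by that filter. The 1 count in non-invasive cells against 117 in serum-free cells made the level 143-fold lower (exact 95% counting interval 25.2 to 5702; edgeR adjusted p = 1.3e-05). The MEK inhibitor group also had 117 counts and stood 121.6-fold above non-invasive cells (21.4 to 4845; edgeR adjusted p = 6.0e-05). Invasive cells fell by 2.64 on the log2 scale against serum-free cells (SE 0.74, edgeR adjusted p = 0.0034), and cetuximab-treated cells by 2.62 (SE 0.71, edgeR adjusted p = 0.0038). Of the 18 invasive counts 15 were in library 3, and without it the log2 difference was -4.77. Without cetuximab library 4, with 16 of 26 counts, the cetuximab difference was -3.36. MEK inhibitor-treated cells differed from serum-free cells by -0.22 ± 0.62 (edgeR adjusted p = 0.84) and from cetuximab-treated cells by 2.39 ± 0.70 (edgeR adjusted p = 0.016), the second call lost without cetuximab library 1 (edgeR adjusted p 0.053) and the value 3.17 without cetuximab library 4. With cetuximab the 26 counts were 24.5-fold above non-invasive cells (4.02 to 1004; edgeR adjusted p = 0.048), and the call was lost without cetuximab library 3 or 4 and without any 1 of the 4 non-invasive libraries. In Kyse30 COL4A4 had 2 counts, both in invasive library 3.

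COL7A1, the chain of the anchoring fibrils that fasten squamous epithelium to its stroma, was lower in invasive and non-invasive FaDu cells than in serum-free cells, and higher in both drug groups than in non-invasive cells. It had 23.9, 47.4, 24.7 and 25.8 CPM in invasive and 18.6, 21.4, 25.2 and 26.6 CPM in non-invasive cells. MEK inhibitor libraries had 175, 63.4, 68.4 and 74.0 CPM, cetuximab libraries 54.5, 72.8, 54.2 and 40.4 CPM and serum-free libraries 99.3, 98.7, 100.1 and 104 CPM. Invasive and non-invasive cells overlapped each other, and neither reached the serum-free range. It fell in invasive (-1.73 ± 0.28, edgeR adjusted p = 1.7e-05) and non-invasive cells (-2.13 ± 0.28, edgeR adjusted p = 1.9e-06) against serum-free cells. Against non-invasive cells it was higher with the MEK inhibitor (2.04 ± 0.28, edgeR adjusted p = 8.9e-06) and with cetuximab (1.27 ± 0.28, edgeR adjusted p = 0.0051), and both groups lay wholly above the non-invasive libraries. MEK inhibitor-treated cells differed from serum-free cells by -0.09 ± 0.26 (edgeR adjusted p = 0.85), and cetuximab-treated cells were lower (-0.87 ± 0.27, edgeR adjusted p = 0.012). MEK inhibitor library 1 had 175 CPM against 63.4 to 74.0 in the others of its group, with 2.87% of its counts from MALAT1 against 1.15% to 1.65%. What sets that library apart was not tested. Without it the difference of MEK inhibitor-treated from non-invasive cells was the lowest of all alternatives, 1.58, and still called. The call of the MEK inhibitor over cetuximab (0.77 ± 0.27, edgeR adjusted p = 0.044) was lost without it (log2 fold change 0.33, edgeR adjusted p 0.27) and without cetuximab library 1, 3 or 4. In Kyse30 COL7A1 lay between 0 and 8.49 CPM, with no call.

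COL6A1, a chain of the type VI microfilaments that link cells to the surrounding matrix, was graded over the FaDu groups. Invasive libraries had 1.91, 4.37, 1.53 and 2.39 CPM, non-invasive libraries 7.62, 5.59, 7.80 and 6.77 CPM and MEK inhibitor libraries 11.6, 17.1, 14.3 and 15.3 CPM. Cetuximab libraries had 6.70, 11.0, 14.7 and 10.8 CPM and serum-free libraries 29.0, 23.0, 24.4 and 24.2 CPM. Invasive lay wholly below non-invasive, and every EGF-treated library, drug or not, below serum-free, while cetuximab overlapped both non-invasive and MEK inhibitor libraries. It was lower in invasive than in non-invasive cells (-1.47 ± 0.32, edgeR adjusted p = 0.009). In 1 fit over the 40 libraries of both lines that difference was -1.46, with an edgeR adjusted p of 0.32. Against serum-free cells it fell in invasive (-3.31 ± 0.31, edgeR adjusted p = 9.4e-10), non-invasive (-1.85 ± 0.27, edgeR adjusted p = 2.5e-06) and cetuximab-treated cells (-1.21 ± 0.26, edgeR adjusted p = 0.00045), and also in MEK inhibitor-treated cells (-0.78 ± 0.26, edgeR adjusted p = 0.032). The MEK inhibitor call was lost without any 1 of MEK inhibitor libraries 1, 3 and 4 or of the 4 serum-free libraries, with edgeR adjusted p up to 0.096. Against non-invasive cells the MEK inhibitor group was higher (1.07 ± 0.27, edgeR adjusted p = 0.0036) and the cetuximab group differed by 0.64 ± 0.27 (edgeR adjusted p = 0.16). In Kyse30 it lay between 0 and 6.42 CPM.

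COL16A1, a fibril-associated chain, was close to 0 in invasive and non-invasive FaDu cells. It had 0, 0, 0.305 and 0.717 CPM in invasive and 0, 2.10, 0.446 and 0.484 CPM in non-invasive cells, 4 and 13 counts. With the MEK inhibitor there were 26.1, 4.61, 7.85 and 7.87 CPM, with cetuximab 3.35, 0, 1.20 and 1.72 CPM and in serum-free cells 13.1, 9.85, 13.0 and 11.6 CPM. The MEK inhibitor and serum-free groups overlapped each other and lay wholly above the other 3. It fell in invasive (-5.30 ± 0.87, edgeR adjusted p = 1.1e-05), non-invasive (-3.93 ± 0.73, edgeR adjusted p = 7.5e-05) and cetuximab-treated cells (-2.84 ± 0.65, edgeR adjusted p = 0.001) against serum-free cells. It was higher with the MEK inhibitor than in non-invasive (3.86 ± 0.73, edgeR adjusted p = 0.00023) and cetuximab-treated cells (2.77 ± 0.65, edgeR adjusted p = 0.0033). These directions and their p-values are in part set by the filter, which the chain passed through the MEK inhibitor and serum-free groups. MEK inhibitor library 1, which also had the highest COL7A1, held 26.1 CPM against 4.61 to 7.87 in the others. Without it the first difference was 3.12 and the second 2.05, and both stayed called. Without non-invasive library 2 the first was 5.08 and the fall in non-invasive cells -5.14. Without cetuximab library 1 the second was 3.37, and without invasive library 4 the fall in invasive cells was -6.55. COL28A1, a chain with von Willebrand factor A domains, had 2.15, 9.09, 1.22 and 0.717 CPM in invasive, 4.48, 5.36, 4.23 and 2.90 CPM in non-invasive and 9.51, 1.38, 2.69 and 5.10 CPM in MEK inhibitor-treated FaDu cells. Cetuximab libraries had 2.46, 1.26, 1.61 and 2.92 CPM of it and serum-free libraries 11.0, 10.1, 11.1 and 6.80 CPM. It fell with cetuximab (-2.19 ± 0.58, edgeR adjusted p = 0.0032) and in invasive cells (-1.61 ± 0.57, edgeR adjusted p = 0.018), the second call lost without invasive library 1, 3 or 4 (edgeR adjusted p 0.053, 0.057 and 0.069). Without invasive library 2, which had the highest value of its group, the invasive difference was -2.80. In Kyse30 its values were 0, 8.39, 5.69 and 6.09 CPM in invasive, 11.9, 8.01, 23.9 and 6.76 CPM in non-invasive and 7.69, 15.1, 22.8 and 13.98 CPM in serum-free cells, and between 4.86 and 9.21 CPM with the MEK inhibitor and 6.66 and 9.27 CPM with cetuximab. Its fall in invasive Kyse30 cells (-1.33 ± 0.49, edgeR adjusted p = 0.047; -1.13 ± 0.44, edgeR adjusted p = 0.043 without the shallow library) was lost in 7 of 16 alternatives, among them those without invasive library 3 or 4 or serum-free library 2, 3 or 4.

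COL9A3, a fibril-associated chain of cartilage, was low throughout. In FaDu it had 0.718, 3.37, 2.75 and 2.15 CPM in invasive, 4.03, 3.26, 4.23 and 4.35 CPM in non-invasive and 2.82, 2.07, 1.86 and 2.98 CPM in MEK inhibitor-treated cells. Cetuximab libraries had 1.12, 0.945, 6.63 and 5.50 CPM and serum-free libraries 1.63, 1.64, 0.567 and 0.504 CPM. It rose in non-invasive (1.87 ± 0.63, edgeR adjusted p = 0.015) and cetuximab-treated cells (1.75 ± 0.63, edgeR adjusted p = 0.025) against serum-free cells. The first call was lost without serum-free library 3 or 4 (edgeR adjusted p 0.051 and 0.057), and the second without cetuximab library 3 or 4 or serum-free library 3 or 4 (0.12, 0.082, 0.078 and 0.085). Serum-free FaDu cells were low in COL9A3, so the direction and p-values of these rises are in part set by the filter on low counts. In Kyse30 COL9A3 lay between 0 and 3.00 CPM.

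**Figure D4:**
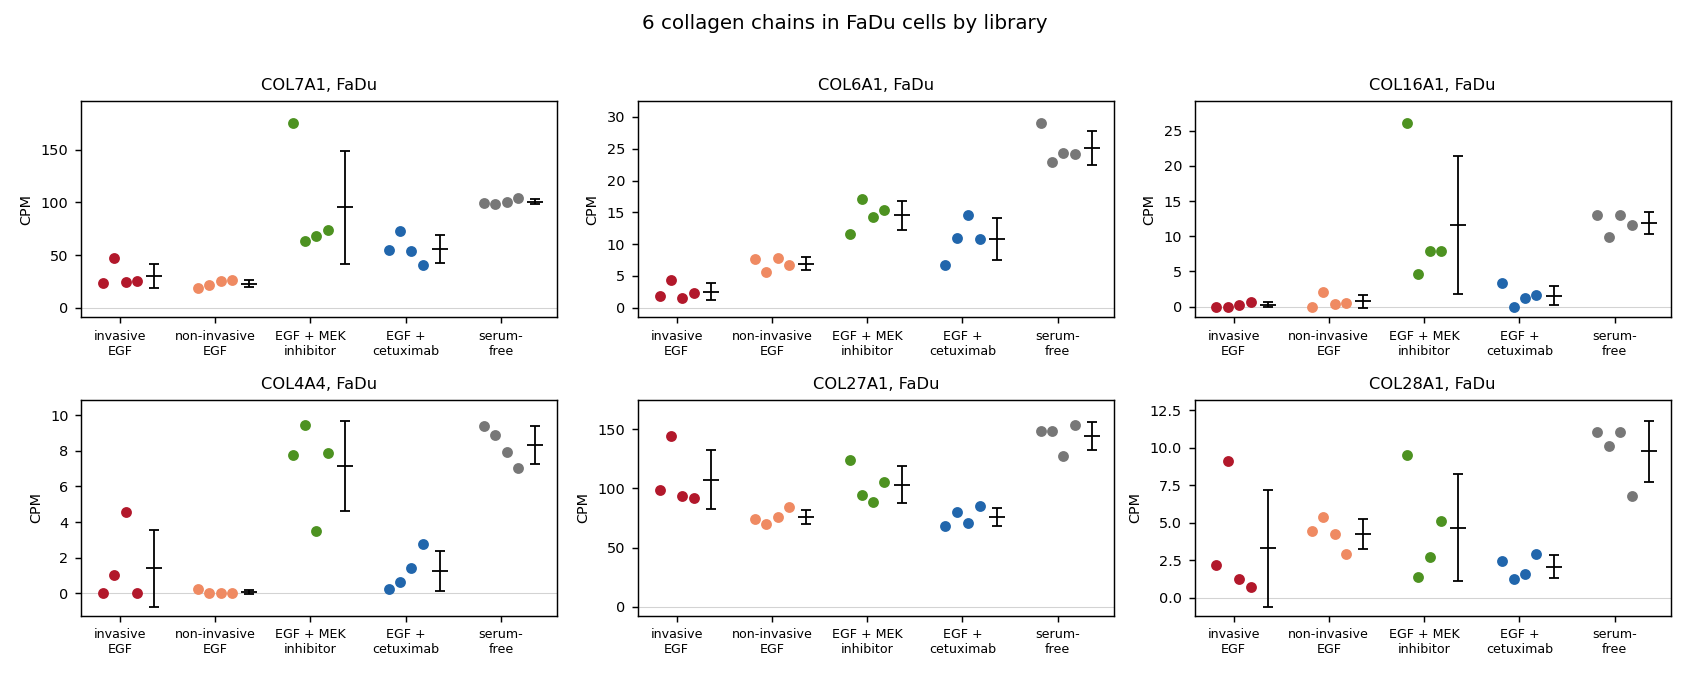
CPM (y axis) of COL7A1, COL6A1, COL16A1, COL4A4, COL27A1 and COL28A1 in each FaDu library of the 5 groups (x axis), with mean and SD beside each group. COL6A1 lies between 1.53 and 7.8 CPM in invasive and non-invasive cells and at 23.0 CPM or more in serum-free cells, and MEK inhibitor library 1 stands apart for COL7A1 at 175 CPM and COL16A1 at 26.1 CPM.

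Added up, the 16 chains came to 233 ± 43.8 CPM in invasive, 215 ± 15.3 in non-invasive, 336 ± 94.3 in MEK inhibitor-treated, 242 ± 25.4 in cetuximab-treated and 375 ± 14.4 CPM in serum-free FaDu cells (SD, n = 4). In Kyse30 the sums were 122 ± 14.9 CPM in invasive, 151 ± 39.4 in non-invasive, 146 ± 15.1 in MEK inhibitor-treated, 132 ± 16.5 in cetuximab-treated and 111 ± 21.2 CPM in serum-free cells. Serum-free FaDu cells were highest and serum-free Kyse30 cells lowest in mean, and these sums were not tested. The invasive Kyse30 sum includes the shallow library, whose collagen counts all came from COL4A5. Few chains made up much of the sums, such as COL27A1 (mean 144 CPM) and COL7A1 (101 CPM) in serum-free FaDu cells. In invasive Kyse30 cells COL4A5 had a mean of 84.8 CPM. The sums therefore say little about the 16 chains as a set.

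The lines differed in which chains they transcribed. In serum-free cells, Kyse30 was higher than FaDu for 3 chains and lower for 7 of 16, where 43.5% of all genes were called, 21.5% higher and 22% lower. Of the 7, COL4A4, COL5A1, COL6A1, COL16A1 and COL27A1 had not passed the filter in Kyse30 alone and entered the fit over 40 libraries through FaDu, where they are high. Their direction, and with it the balance of 7 to 3, is in part set by that filter, and they are given without a p. Higher in Kyse30 were COL4A5 (0.77 ± 0.29, edgeR adjusted p = 0.031), COL12A1 (1.10 ± 0.43, edgeR adjusted p = 0.035) and COL18A1 (1.17 ± 0.42, edgeR adjusted p = 0.022). These calls depended on single libraries. COL4A5 was lost without FaDu serum-free library 2, 3 or 4 or Kyse30 serum-free library 2 or 3, COL12A1 without FaDu library 2, 3 or 4 or Kyse30 library 1, 2 or 3, and COL18A1 without FaDu library 1 or Kyse30 library 4. The edgeR adjusted p reached 0.15, 0.10 and 0.10. Lower in Kyse30 were COL7A1 (-5.06 ± 0.50, edgeR adjusted p = 3.4e-11) and COL1A1 (-1.40 ± 0.50, edgeR adjusted p = 0.021). COL1A1 was lost without Kyse30 library 3 or 4 (edgeR adjusted p 0.08 and 0.081), and its difference was -2.08 without Kyse30 library 2. The difference was -6.58 ± 0.40 for COL27A1, -7.19 without Kyse30 library 3, and -3.57 ± 0.58 for COL6A1, -5.51 without Kyse30 library 2, which held 20 of its 24 serum-free counts. COL5A1, COL4A4 and COL16A1 had 0 counts in serum-free Kyse30 cells. Taking 3 counts over the group as the floor, COL5A1 was at least 33.2-fold lower than in FaDu, COL4A4 at least 29.9-fold and COL16A1 at least 42.6-fold.

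The difference of non-invasive from serum-free cells was not the same in both lines for 6 of 16 chains, where 15.7% of all genes were called, 9.47% higher and 6.2% lower. Besides COL4A2, COL4A5, COL18A1 and COL12A1, whose own choice rests on the non-invasive libraries, these were COL7A1 (2.38 ± 0.69, edgeR adjusted p = 0.014) and COL16A1, whose Kyse30 side rests on 4 counts in non-invasive and 0 in serum-free cells. COL16A1 and COL6A1 had not passed the filter in Kyse30 alone and entered the fit over 40 libraries through FaDu. Their differences between the lines are in part set by that filter and are given without a p. COL7A1 and COL16A1 lost their calls without non-invasive Kyse30 library 1 (edgeR adjusted p 0.15 for COL7A1), a library with 6.27% of counts from MALAT1. Without it the COL7A1 difference was 1.58. Without that library 2 of the 6 calls were left, COL4A5 and COL12A1. With the shallow library and both libraries high in MALAT1 left out, COL4A5, COL12A1 and COL18A1 were called, and the COL7A1 difference was 1.19. Without the shallow library alone the 6 were called together with COL6A1. The part of the MALAT1-rich libraries in these results was not tested further. For the MEK inhibitor against non-invasive cells, COL6A1 (-3.00 ± 0.86) and COL7A1 (-2.24 ± 0.66, edgeR adjusted p = 0.038) differed between the lines, 2 of 13 chains where 5.1% of genes were called, 2.27% higher and 2.83% lower. Both calls were lost without non-invasive FaDu library 2, non-invasive Kyse30 library 1 or MEK inhibitor Kyse30 library 3. The COL7A1 difference was -1.44 without non-invasive Kyse30 library 1 and -1.05 without the shallow and both MALAT1-rich libraries, and the COL6A1 difference -3.78 without MEK inhibitor Kyse30 library 1. In addition 1 of the 2 was lost without FaDu non-invasive library 1, 3 or 4, FaDu MEK inhibitor library 1, Kyse30 non-invasive library 3 or Kyse30 MEK inhibitor library 1 or 2. For cetuximab and for position in the spheroid edgeR called no chain of 13, where 1.31% and 0.182% of genes were called. DESeq2 called 1 and 0, and 2 and 0 had an unadjusted p under 0.05. For the MEK inhibitor and COL12A1 the Kyse30 effect minus the FaDu effect was 7.25 ± 0.72, and for cetuximab 5.80 ± 0.72, both described without a test.

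Genes that build, secrete, bind and degrade collagen were counted from lists chosen by function, with earlier results of these data known. The genes printed are among those called with the largest change in their list. Counts and p-values of these lists are therefore a description and no independent support. Among hydroxylases and glycosyltransferases of the chains, 7 of 12 tested were higher and 1 lower in non-invasive than in serum-free FaDu cells. PLOD3, a lysyl hydroxylase and glucosyltransferase, had 80.1 ± 3.96 CPM in non-invasive cells and 18.9 ± 1.48 CPM in serum-free cells, log2 fold change 2.08 ± 0.16, edgeR adjusted p = 3.7e-11. In folding and export 5 of 13 were higher and 2 lower, led by HSPA5, the chaperone of the endoplasmic reticulum, at 766 ± 77.7 CPM in non-invasive cells and 332 ± 12.3 CPM in serum-free cells, log2 fold change 1.20 ± 0.17, edgeR adjusted p = 2.8e-06. MIA2, a partner of large-cargo export, was lower (33.8 ± 3.69 CPM in non-invasive cells and 63.3 ± 5.30 CPM in serum-free cells, log2 fold change -0.90 ± 0.19, edgeR adjusted p = 0.00031). In propeptide cleavage and cross-linking 3 of 5 were higher and 1 lower. LOXL2, a lysyl oxidase that cross-links type IV collagen, had 115 ± 18.2 CPM in non-invasive cells and 26.7 ± 4.65 CPM in serum-free cells, log2 fold change 2.10 ± 0.38, edgeR adjusted p = 0.00018. Of the receptors, 4 of 6 were higher and 2 lower. ITGA2, the collagen-binding integrin subunit, had 195 ± 38.8 CPM in non-invasive cells and 15.9 ± 3.65 CPM in serum-free cells, log2 fold change 3.64 ± 0.23, edgeR adjusted p = 3.1e-12. MRC2, the uptake receptor for collagen fragments, was lower (6.43 ± 0.5 CPM in non-invasive cells and 21.7 ± 0.912 CPM in serum-free cells, log2 fold change -1.75 ± 0.32, edgeR adjusted p = 6.4e-05). MMP1, which cleaves type I collagen, was the 1 called gene of 6 proteases, at 76.2 ± 23.7 CPM in non-invasive cells and 0.126 ± 0.252 CPM in serum-free cells (edgeR adjusted p = 3.1e-07). In invasive cells MMP1 stood at 139 ± 61.6 CPM, against the same serum-free level (edgeR adjusted p = 4.8e-08). Of 3 fibril partners 2 were higher, with FN1 at 5.37 ± 2.51 CPM in non-invasive cells and 0.413 ± 0.679 CPM in serum-free cells, log2 fold change 3.57 ± 0.91, edgeR adjusted p = 0.0019, and TGFBI was lower. These shares stand beside 25.3% of genes higher and 24.7% lower in that comparison.

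In Kyse30 non-invasive against serum-free cells, with 12.9% of all genes called, 2 of 13 hydroxylation genes, 2 of 13 folding genes, 1 of 5 cross-linking genes and 2 of 5 receptors were higher, and 2 of 7 proteases and 1 of 3 fibril partners lower. Without the shallow library the counts were 4 higher hydroxylation genes, 2 higher and 3 lower folding genes, 2 higher and 1 lower cross-linking genes, 3 higher receptors, 2 lower proteases and 1 lower fibril partner, beside 27.8% of all genes. PLOD2, a lysyl hydroxylase of telopeptides, had 10.6 ± 3.59 CPM in non-invasive cells and 0.442 ± 0.328 CPM in serum-free cells, log2 fold change 4.42 ± 0.82, edgeR adjusted p = 0.00063. LOXL2 had 12.0 ± 9.08 CPM in non-invasive cells and 0.642 ± 1.28 CPM in serum-free cells, log2 fold change 4.03 ± 0.95, edgeR adjusted p = 0.0055. TGFBI, which binds several collagens, was lower (204 ± 23.8 CPM in non-invasive cells and 931 ± 91.7 CPM in serum-free cells, log2 fold change -2.19 ± 0.23, edgeR adjusted p = 4.3e-07). Between invasive and non-invasive FaDu cells P4HA1, a prolyl 4-hydroxylase subunit, was lower (68.1 ± 11.5 CPM in invasive cells and 162 ± 25.8 CPM in non-invasive cells, log2 fold change -1.25 ± 0.23, edgeR adjusted p = 0.0028), and so was LOXL2 (28.5 ± 13.95 CPM in invasive cells and 115 ± 18.2 CPM in non-invasive cells, log2 fold change -1.99 ± 0.38, edgeR adjusted p = 0.0059). These were the called genes of the 6 lists there, beside 3.03% of all genes.

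Of the receptors, against non-invasive FaDu cells 4 of 6 were lower with cetuximab, where 8.56% of all genes were called and 4.93% were lower, and 4 lower and 2 higher with the MEK inhibitor, where 29.7% were called, 14.8% higher and 14.9% lower. ITGA2 had 16.3 ± 4.58 CPM in MEK inhibitor-treated cells and 195 ± 38.8 CPM in non-invasive cells, log2 fold change -3.58 ± 0.23, edgeR adjusted p = 1.0e-11, and 58.0 ± 15.1 CPM in cetuximab-treated cells and 195 ± 38.8 CPM in non-invasive cells, log2 fold change -1.76 ± 0.21, edgeR adjusted p = 2.0e-06. MMP1 had 4.74 ± 3.80 CPM in cetuximab-treated cells and 76.2 ± 23.7 CPM in non-invasive cells, log2 fold change -4.10 ± 0.54, edgeR adjusted p = 7.5e-05. With the MEK inhibitor MMP1 was at 0.0516 ± 0.103 CPM, against the same non-invasive level (edgeR adjusted p = 5.0e-07). PLOD3 was lower with the MEK inhibitor (34.1 ± 4.98 CPM in MEK inhibitor-treated cells and 80.1 ± 3.96 CPM in non-invasive cells, log2 fold change -1.23 ± 0.15, edgeR adjusted p = 4.9e-07) and PLOD2 higher (83.6 ± 37.0 CPM in MEK inhibitor-treated cells and 40.8 ± 7.55 CPM in non-invasive cells, log2 fold change 1.04 ± 0.28, edgeR adjusted p = 0.0078). In Kyse30, COLGALT2, a collagen galactosyltransferase, was higher with the MEK inhibitor (12.7 ± 8.03 CPM in MEK inhibitor-treated cells and 0.938 ± 0.397 CPM in non-invasive cells, log2 fold change 3.66 ± 0.73, edgeR adjusted p = 0.0029) and with cetuximab (6.18 ± 3.36 CPM in cetuximab-treated cells and 0.938 ± 0.397 CPM in non-invasive cells, log2 fold change 2.62 ± 0.72, edgeR adjusted p = 0.034).

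The genes most like COL12A1 over the 20 FaDu libraries, by Pearson r of log2 CPM, were MACF1 at 0.938, LIMA1 at 0.938, NAV3 at 0.929, MYO10 at 0.926 and MEAF6 at 0.923. Over the 20 Kyse30 libraries they were CAMK4 at 0.962, FAT3 at 0.940, PPP2R2B at 0.939, TNS1 at 0.939 and WSCD1 at 0.938. For COL5A1 in FaDu they included FAM114A1 at 0.856, TMEM120A at 0.853, TCAF2 at 0.849 and EPPK1 at 0.845. Libraries of a group share their treatment and sorting, so these values describe likeness over 5 groups and carry no test.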

How the data were processed

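Gene counts of 40 libraries were used as the authors deposited them, 1 table of raw counts per gene over 12655 genes. Per the submitters' processing notes, STAR, HTSeq and the GRCh38 build were used; their versions, the annotation and whether counting used strand are not stated in these sources, so reads of antisense partners cannot be told apart. Libraries were Lexogen QuantSeq 3′ mRNA-Seq V2, per the labels' protocols, so counts come from transcript ends, and no molecular identifiers are named.

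Groups were taken from titles. Each line's 20 libraries were fitted together with edgeR 4.0.16 (R 4.3.3, limma 3.58.1): TMM scaling, the tool's default expression filter, robust quasi-likelihood dispersion and F test, with Benjamini-Hochberg adjustment over all 12131 (FaDu) or 11976 (Kyse30) genes tested and a threshold of 0.05. Differences between lines came from 1 fit over 40 libraries. Standard errors are the fold change over the square root of F. Levels are CPM with TMM-scaled library sizes, not scaled by length. Replicate pairs differed by more than sampling noise, with chi-square per degree of freedom between 2.39 and 63.625. The fit was tested on simulated data. Alternatives were DESeq2 1.42.0, RLE scaling, no and a stricter count filter (1 CPM in 4 libraries), a replicate block, a fit over 40 libraries and omission of each library. Chosen after seeing the data were omissions of the shallow library, of it with 2 MALAT1-rich ones, and of FaDu MEK inhibitor library 1.

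Members and gene lists were chosen with earlier results of these data known. Values in every library are given for COL5A1, COL12A1, COL1A1 and each chain called within a line with a log2 fold change of at least 1 and at least 2 CPM in a group, up to 12 by level; of each pathway list and comparison, up to 4 called genes with the largest change were eligible; likeness took the 5 genes with the highest r, with a prior count of 2, and 1 of these is not reported here. Of those eligible, only some are printed.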

Additional observations from a re-analysis of the deposited data

Results flagged for a closer look

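Groups of 4 libraries were examined for the chains printed by library that had passed the filter of their line, without COL27A1 and COL11A2. A group with counts in 1 library only is flagged by construction. Among these 115 groups, 10 held a library far from the other 3. The chance rate of about 1 in 20 holds for normally distributed values, so it is no measure for low counts. In FaDu the libraries that stood apart were non-invasive library 3 for COL5A1 (6.02 CPM), invasive library 2 for COL7A1 (47.4 CPM), MEK inhibitor library 1 for COL7A1 (175 CPM) and COL16A1 (26.1 CPM), cetuximab library 2 for COL18A1 (34.6 CPM) and non-invasive library 1 for COL4A4 (0.224 CPM, the 1 count of its group). In Kyse30 they were invasive library 2 for COL12A1 (0.311 CPM, the 1 count of its group) and COL7A1 (4.35 CPM), cetuximab library 4 for COL4A5 (81.3 CPM) and serum-free library 1 for COL4A6 (2.93 CPM, all 8 counts of its group).

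The difference of non-invasive from serum-free cells differed between the lines, by a test of the difference itself, for 6 chains. The Kyse30 difference minus the FaDu difference on the log2 scale was -6.41 for COL12A1, which was chosen on the same non-invasive libraries, -1.82 for COL4A2, -1.73 for COL18A1, 1.60 for COL4A5, 2.38 for COL7A1 and 7.13 for COL16A1, the last a fitted value that rests on Kyse30 groups of 4 and 0 counts and is no bound. For the MEK inhibitor against non-invasive cells it was -3.00 for COL6A1 and -2.24 for COL7A1. COL6A1 and COL16A1 had not passed the filter in Kyse30 alone, so their differences are in part set by that filter. Causes were not tested.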

How the results depend on the processing

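No direction reversed in any alternative run among values called in the main fit or described with an absolute log2 fold change of at least 1. Uncalled and smaller described values were not checked for this. Of single-chain values with a call, 1 fit over 40 libraries ended the call of 20 of 60, the replicate block of 10 of 78, RLE scaling of 2 of 78, and DESeq2, no filter and the stricter filter of 1 of 78 each. Omission of 1 library ended 115 of 688, of FaDu MEK inhibitor library 1 as an added choice 5 of 54, of the shallow with both MALAT1-rich libraries 5 of 24, and of the shallow library 0 of 24. The cause was not tested. For invasive against non-invasive FaDu cells 1 chain became 3 with DESeq2, 2 without MEK inhibitor library 1 and 0 in the fit over 40 libraries. For cetuximab against non-invasive FaDu cells 2 became 1 with the replicate block, 1 without MEK inhibitor library 1 and 0 in the fit over 40 libraries. That fit also gave 3 for the MEK inhibitor against non-invasive, 7 for cetuximab and 3 for the MEK inhibitor against serum-free, and 1 between the drugs in FaDu, where omission of MEK inhibitor library 1 gave 3. In Kyse30 cetuximab against serum-free became 1 with DESeq2, without the shallow library, without it and both MALAT1-rich libraries, and in the fit over 40 libraries. The MEK inhibitor against non-invasive Kyse30 cells became 1 without the shallow library and in the fit over 40 libraries, and against serum-free cells 1 without the 3 libraries. Of differences between lines, cetuximab became 1 with DESeq2, the MEK inhibitor 1 with the replicate block and 0 without the 3 libraries, and non-invasive against serum-free cells 3 without the 3 libraries.

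Leaving out 1 library at a time moved the counts of called chains to 2 to 5 between the FaDu drug groups, 4 to 5 and 1 to 2 for the MEK inhibitor and cetuximab against non-invasive, 3 to 5 and 10 to 12 for the MEK inhibitor and cetuximab against serum-free, 10 to 14 and 10 to 12 for invasive and non-invasive against serum-free, and 1 to 2 for invasive against non-invasive FaDu cells. In Kyse30 the ranges were 1 to 5 and 1 to 2 for invasive and non-invasive against serum-free, 0 to 1 for cetuximab against serum-free and 0 to 0 otherwise. Between lines they were 7 to 10 in serum-free cells, 2 to 7 for non-invasive against serum-free cells, 0 to 2 for the MEK inhibitor and 0 to 0 for cetuximab and position.

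Replicate numbers recur in every group, but no label ties equal numbers together, and deviations of same-numbered libraries had a median r of -0.019 over 40 pairs in FaDu and 0.002 over 40 in Kyse30, with 8 and 7 pairs over 0.1. The numbers were therefore not taken as pairs, and the replicate block values above are given for completeness. The floor of 3 counts limits chains at or near 0, most of all in Kyse30.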
